A study of Schizosaccharomyces pombe with 6 samples.

Results

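The genes described here encode the proteins of the large subunit of the cytosolic ribosome in fission yeast, Schizosaccharomyces pombe. Members were chosen as protein-coding genes whose symbols start with rpl or rpp and which overlap a MACS small RNA peak by at least 1 bp, with mitochondrial ribosomal proteins left out. Of 83 such genes in the RefSeq annotation, 82 held a peak. The exception was rpl1603. A further 3 rpp symbols, rpp1, rpp21 and rpp40, name subunits of RNase P or RNase MRP and were not counted, while rpl701, annotated both as an RNase MRP subunit and as L7-like, was kept. The members held 341 of 11033 peaks, among 5905 genes of any kind with a peak, 3519 of them protein-coding.

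RNA of 18 to 28 nt was sequenced from 6 libraries of cells grown in YES, a rich medium, to an optical density of 0.5. At 30 °C there was 1 wild-type library of strain spb80, 2 wild-type libraries of strain spb75 and 1 library of strain spb309, which is labelled dcr delta, a deletion of the Dicer gene. Strain spb75 was also sampled once after 8 hours and once after 7 days at 37 °C. The reads worked out from the deposited values summed to between 5790804 and 15723318 over all peaks of a library.

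The large subunit joins amino acids in its peptidyl transferase centre and passes the new chain out through an exit tunnel, and its P stalk recruits the translation factors that hydrolyse GTP. Most of its proteins are encoded in fission yeast by 2 or 3 paralogous genes. Ribosomal protein genes are among the most strongly transcribed genes of a growing yeast cell. Dicer cuts double-stranded RNA into small RNAs, which in this species act chiefly in heterochromatin at the centromeric repeats.

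The label of the deletion was checked first. Peaks on annotated centromeric non-coding RNAs took 0.116% of reads in the library labelled dcr delta, against 19.0% ± 3.35 (SD, n = 3) in the wild-type libraries at 30 °C. The dcr1 gene itself held 246 reads in that library, against 81 in spb80, 74 and 58 in the spb75 libraries at 30 °C, 112 after 8 hours and 82.5 after 7 days at 37 °C. The reads on dcr1 thus went against the label and the centromeric reads did not. The part of the gene that was removed is not given in the sources used here, so the library is called the one labelled dcr delta throughout.

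Sequences are shown for the paralogues with the largest imbalance, because shared letters decide whether a short read can be told apart between copies. Each pair of lines gives a 60-base stretch of coding sequence centred on the strongest usable coding peak of the copy with more reads, and the best match in the other copy, read 5′ to 3′ on the coding strand from the RefSeq assembly ASM294v3. Capitals mark the bases that differ. For rpl3001 and rpl3002, which encode eL30, the stretches lie at chrI:1973872-1973931, minus strand, and chrI:5095604-5095663, minus strand, and differ at 16 of 60 bases.
rpl3001: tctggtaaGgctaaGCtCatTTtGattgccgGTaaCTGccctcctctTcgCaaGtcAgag
rpl3002: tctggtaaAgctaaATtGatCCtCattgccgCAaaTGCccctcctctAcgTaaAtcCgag

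For rpl101 and rpl102, which encode uL1 of the mobile L1 stalk, the stretches lie at chrIII:612453-612512, minus strand, and chrII:3060608-3060667, plus strand, and differ at 14 bases.
rpl101: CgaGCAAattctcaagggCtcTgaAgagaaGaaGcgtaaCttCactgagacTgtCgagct
rpl102: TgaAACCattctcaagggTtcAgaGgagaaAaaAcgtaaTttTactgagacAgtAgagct

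For rpl3401 and rpl3402, which encode L34, the stretches lie at chrI:4093682-4093741, minus strand, and chrIII:1321613-1321672, plus strand, and differ at 6 bases.
rpl3401: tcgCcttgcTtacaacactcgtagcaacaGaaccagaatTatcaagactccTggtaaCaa
rpl3402: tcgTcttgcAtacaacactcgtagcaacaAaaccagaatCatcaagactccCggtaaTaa

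In the pair with the most even copies, rpl701 and rpl702, stretches picked the same way differed at 18 of 60 bases. The opposite case in shared letters was the L12 pair, rpl1201 and rpl1202, whose protein sits at the base of the P stalk. This pair ranked 3 for evenness. Its stretches, at chrIII:691284-691343, minus strand, and chrIII:627361-627420, minus strand, hold the same 60 letters, so that no read inside them can be given to either copy.
rpl1201: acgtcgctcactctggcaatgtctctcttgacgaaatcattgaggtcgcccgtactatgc
rpl1202: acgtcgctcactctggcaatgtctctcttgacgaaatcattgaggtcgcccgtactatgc

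Small RNA reads covered most of the length of these transcripts. The median member had 74.3% of its annotated transcript covered by peaks, with a range of 18.5 to 95.8%, against a median of 7.04% for the other 3437 protein-coding genes with a peak. The 55 small-subunit ribosomal protein genes with a peak had a median of 77.6%. A member held 1 to 11 peaks, with a median of 4. Level was expressed as normalised reads in peaks per kb of transcript, averaged over the 3 wild-type libraries at 30 °C. The median was 4032 for the members and 36.1 for the other protein-coding genes, and 76 members ranked among the top 200 protein-coding genes and 46 among the top 100. The members took 2.94% ± 0.835 (SD, n = 3) of all reads in the wild-type libraries at 30 °C.

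The reads lay mostly on coding exons. Coding sequence, assigned by the feature under most of a peak, held 278 of the 341 peaks and 92.4% ± 0.190 (SD, n = 3) of member reads. A further 55 peaks with 6.96% ± 0.285 lay in 3′ UTRs, 7 peaks with 0.375% ± 0.0753 in 5′ UTRs, and 1 peak, in rpl4101, in an intron. Introns occur in 43 members, and peaks covered 5.0% of their intron bases against 69.6% of all exon bases. Along the transcript the reads of each peak were spread evenly over the transcript positions it covers. The share in each of 10 equal parts, averaged over the 82 genes, was 10.3% ± 0.143 in the first. It reached 13.0% ± 0.489 in the fourth and was 2.71% ± 0.238 in the last. The same peaks serve all libraries, so likeness between libraries is partly built in. The profile in the library labelled dcr delta ran from 10.3% in the first part to 12.5% in the fourth and 3.19% in the last. The deposited list gives every peak the plus strand, so sense and antisense reads cannot be told apart. This matters because 187 of the 341 member peaks, or 54.8%, also overlapped another annotated gene, with 153 overlaps with lncRNAs, 151 of them on the opposite strand. All peaks of 30 members were shared in this way.

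**Figure D1:**
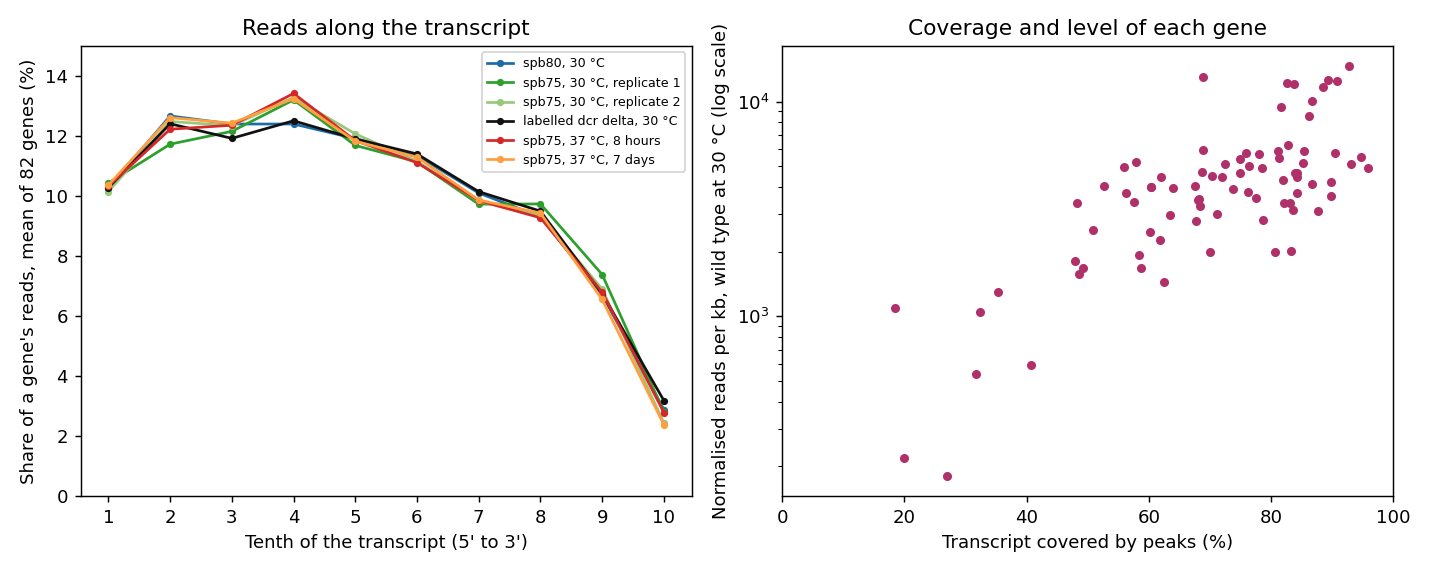
Left, the mean share (%) of a gene's reads in each of 10 equal parts of the transcript from 5′ to 3′, with 1 line per library. Each peak's reads are spread evenly over the positions it covers, and the same peaks serve all libraries. The 6 lines lie close together and drop to between 2.38 and 3.19% in the last part. Right, each point is 1 of 82 genes, with the percentage of its transcript covered by peaks on the x axis and its normalised reads per kb in wild type at 30 °C on a log y axis.

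The highest levels per kb were found for rpl26, at 14579 ± 3434 (SD, n = 3) normalised reads per kb in wild type at 30 °C, followed by rpl39, rpl4101, rpl8 and rpl4301 at 12957 ± 2853, 12620 ± 472, 12474 ± 2405 and 12150 ± 2273. These 5 did not differ from one another beyond their spread. The order depends on the length used. Per kb of coding sequence rpl4101 ranked 1, rpl4102 2, rpl39 3, rpl26 4, rpl4301 5 and rpl8 8. The products of rpl26 and rpl39 lie at the rim and in the wall of the exit tunnel, and rpl4101 encodes a very short peptide. The lowest were rpl3002 at 181 ± 56.4, rpl102 at 218 ± 45.4 and rpl35A02 at 539 ± 85.5. The lowest 2 overlapped within their spread and both lay below rpl35A02. Their paralogues stood at 5891 ± 561 (rpl3001), 5750 ± 414 (rpl101) and 5092 ± 883 (rpl35A01).

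**Figure D2:**
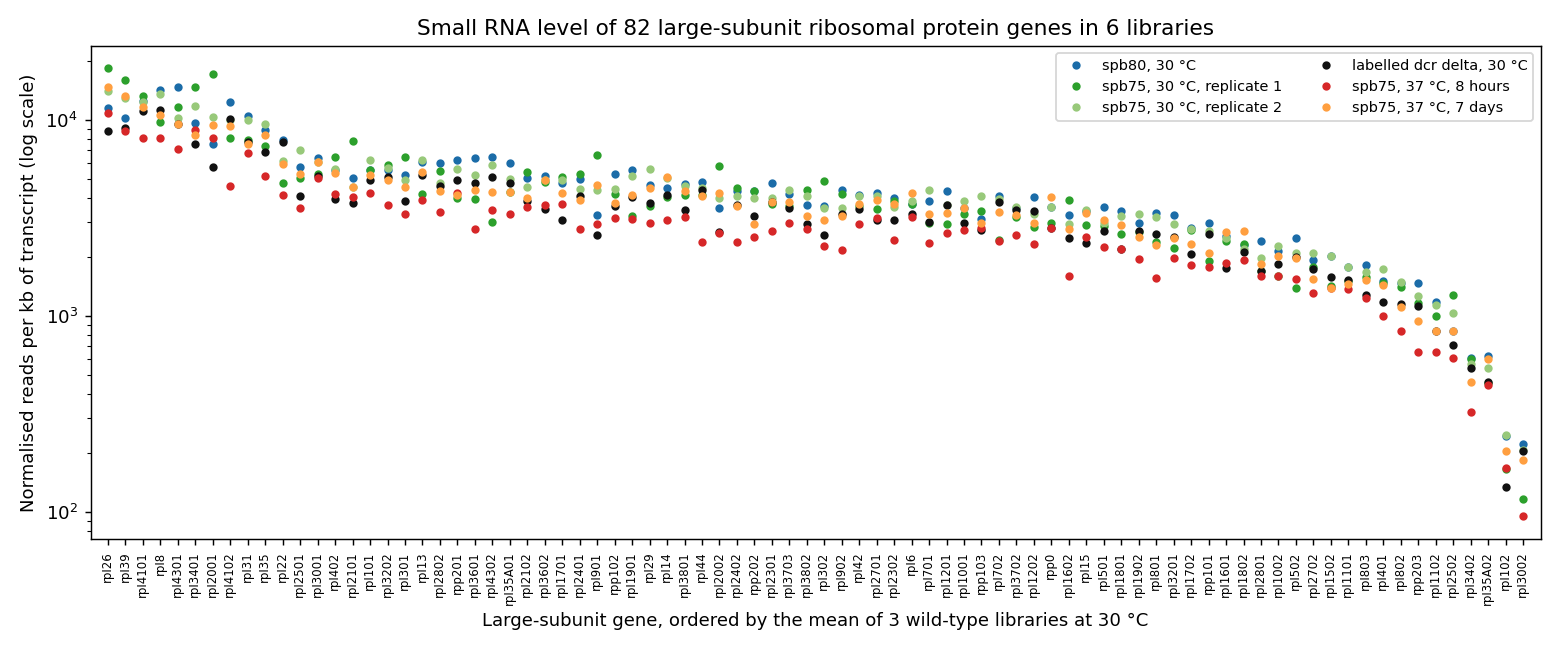
Normalised reads per kb of transcript (log y axis) of the 82 genes in each of 6 libraries (points), ordered along the x axis by the mean of the 3 wild-type libraries at 30 °C. The genes run from 14579 for rpl26 to 181 for rpl3002, and the points after 8 hours at 37 °C lie in the lower part of most columns.

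By role, the 7 P-stalk genes had a median of 3532 normalised reads per kb in wild type at 30 °C, ranging from 1293 for rpp203 to 5249 for rpp201. The scaffold of the stalk, rpp0, stood at 3379 ± 344 (SD, n = 3). Of the P1 genes, rpp102 stood at 4642 ± 588, rpp103 at 3532 ± 501 and rpp101 at 2526 ± 555. Of the P2 genes, rpp202 stood at 4222 ± 190, between rpp201 and rpp203. The 7 genes for proteins that reach toward the peptidyl transferase centre (rpl301, rpl302, the rpl801 trio, rpl1001 and rpl1002) had a median of 2967, and the 4 genes of the particle with the small 5S RNA (rpl501, rpl502, rpl1101, rpl1102) a median of 1834. The 7 genes of the tunnel exit rim, where uL23, uL24 and uL29 surround the opening, had a median of 5931.

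Copies of one protein were often unequal, and the same copy was usually higher in every library. Pairs were formed from symbols that differ only in their final digits, which gives 67 members in 38 pairs and 32 families, each trio giving 3 pairs, and leaves 15 members unpaired. That rule misses rpl15 and rpl1502, which are both annotated as eL15. In 30 of the 38 pairs the same copy had more reads per kb in all 6 libraries. The log2 ratio of rpl15 over rpl1502 was 0.88 ± 0.24 (SD, n = 6) and also above 0 in all 6 libraries, and with it, counted after the values were seen, the number is 31 of 39. The median absolute log2 ratio between copies, averaged over the 6 libraries, was 0.68; 24 pairs lay within 2-fold and 6 beyond 4-fold. Within a pair the SD of the log2 ratio over the libraries had a median of 0.216. The pairs were compared as values and no test was made, since the 6 libraries are not replicates of 1 condition. The 30 pairs include rpl1201 and rpl1202, rpl301 and rpl302, and rpl1001 and rpl1002. These share 97.3, 74.4 and 70.5% of the 20-base words of their coding sequences. Where reads are shared out between such copies, 1 direction in all libraries need not come from the copies themselves.

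The largest imbalance was that of eL30. The log2 ratio of rpl3001 over rpl3002 in reads per kb was 4.85 in spb80, 5.50 and 4.88 in the spb75 libraries at 30 °C, 4.66 in the library labelled dcr delta, 5.74 after 8 hours and 5.04 after 7 days at 37 °C. All 6 libraries gave the same direction, with a mean of 5.11 ± 0.42 (SD, n = 6), a 34.5-fold difference. In budding yeast the eL30 protein binds its own precursor message and blocks its splicing. For uL1, rpl101 exceeded rpl102 by a log2 ratio of 4.51 in spb80, 5.06 and 4.66 in spb75 at 30 °C, 5.21 in the library labelled dcr delta, 4.67 after 8 hours and 4.68 after 7 days. Its mean was 4.80 ± 0.27 (SD, n = 6). The same measure for rpl3401 over rpl3402 averaged 4.29 ± 0.38. It depends on the length used, since the transcript of rpl3402 has 870 bases, 336 of them coding, and that of rpl3401 455, with 339 coding. In wild type at 30 °C the 2 stood at 12040 and 592 normalised reads per kb of transcript. Per kb of coding sequence rpl3401 stood at 16160 and rpl3402 at 1532. For rpl35A01 over rpl35A02, which encode eL33, the log2 ratio averaged 3.13 ± 0.22. For rpl2501 over rpl2502, which encode uL23 at the tunnel exit, it averaged 2.54 ± 0.29. None of the 5 most unequal pairs overlapped 0 in any library. Levels count only reads inside peaks but divide by the whole transcript, so reads outside peaks are missing. Peaks covered 26.9% of the rpl3002 transcript and 19.9% of that of rpl102, against 81.1% for rpl3001 and 90.4% for rpl101. For rpl3402, rpl35A02 and rpl2502 the cover was 40.7, 31.8 and 32.3%, against 83.7, 72.5 and 68.9% in their partners. The part of the missing reads in these ratios was not tested. In the stretches printed above, the peak over the rpl101 letters, 176 bp wide, held 1613 normalised reads in spb80. The peak over the rpl102 letters, 83 bp wide and covering only part of them, held 90.2. Both values are reads of the whole peak.

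The most even pairs were rpl701 and rpl702 (mean log2 ratio of 0.00 ± 0.21, SD, n = 6), rpl3601 and rpl3602 (-0.01 ± 0.34), rpl1201 and rpl1202 (0.13 ± 0.05), rpl2301 and rpl2302 (0.14 ± 0.13) and rpl2101 and rpl2102 (0.14 ± 0.21). Among these, only the L12 pair pointed one way in all 6 libraries, and its direction turned when reads were divided by coding length in place of transcript length. The most variable pair was rpl901 and rpl902, which encode L9. Its log2 ratio was -0.43 in spb80 and -0.35 in the library labelled dcr delta, but 0.66 and 0.30 in the spb75 libraries at 30 °C, 0.44 after 8 hours and 0.53 after 7 days at 37 °C. The 4 spb75 libraries were all above 0 and the libraries of the other strains both below. The latter are also the libraries whose deposited columns carried an added 8, so strain and column cannot be told apart. A single coding peak of rpl901, 63 bp wide, carried this split. It held 137 normalised reads in spb80 and 74.6 in the library labelled dcr delta, against 2195 and 782 in spb75 at 30 °C, 835 after 8 hours and 1695 after 7 days at 37 °C. Without that peak, chosen after its values were seen, the log2 ratio was below 0 in all 6 libraries, from -0.51 to -0.089. Next in SD came rpl3001 and rpl3002, and then rpl4301 and rpl4302 at 0.41, where replicate 1 of spb75 at 30 °C stood at 1.95 and the other 5 libraries between 0.81 and 1.18. In the P2 trio, rpp201 and rpp202 exceeded rpp203 in all 6 libraries, with mean log2 ratios of 2.17 ± 0.30 and 1.71 ± 0.17. In the P1 trio rpp102 exceeded rpp101 in all 6, where rpp101 over rpp102 averaged -0.81 ± 0.22.

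**Figure D3:**
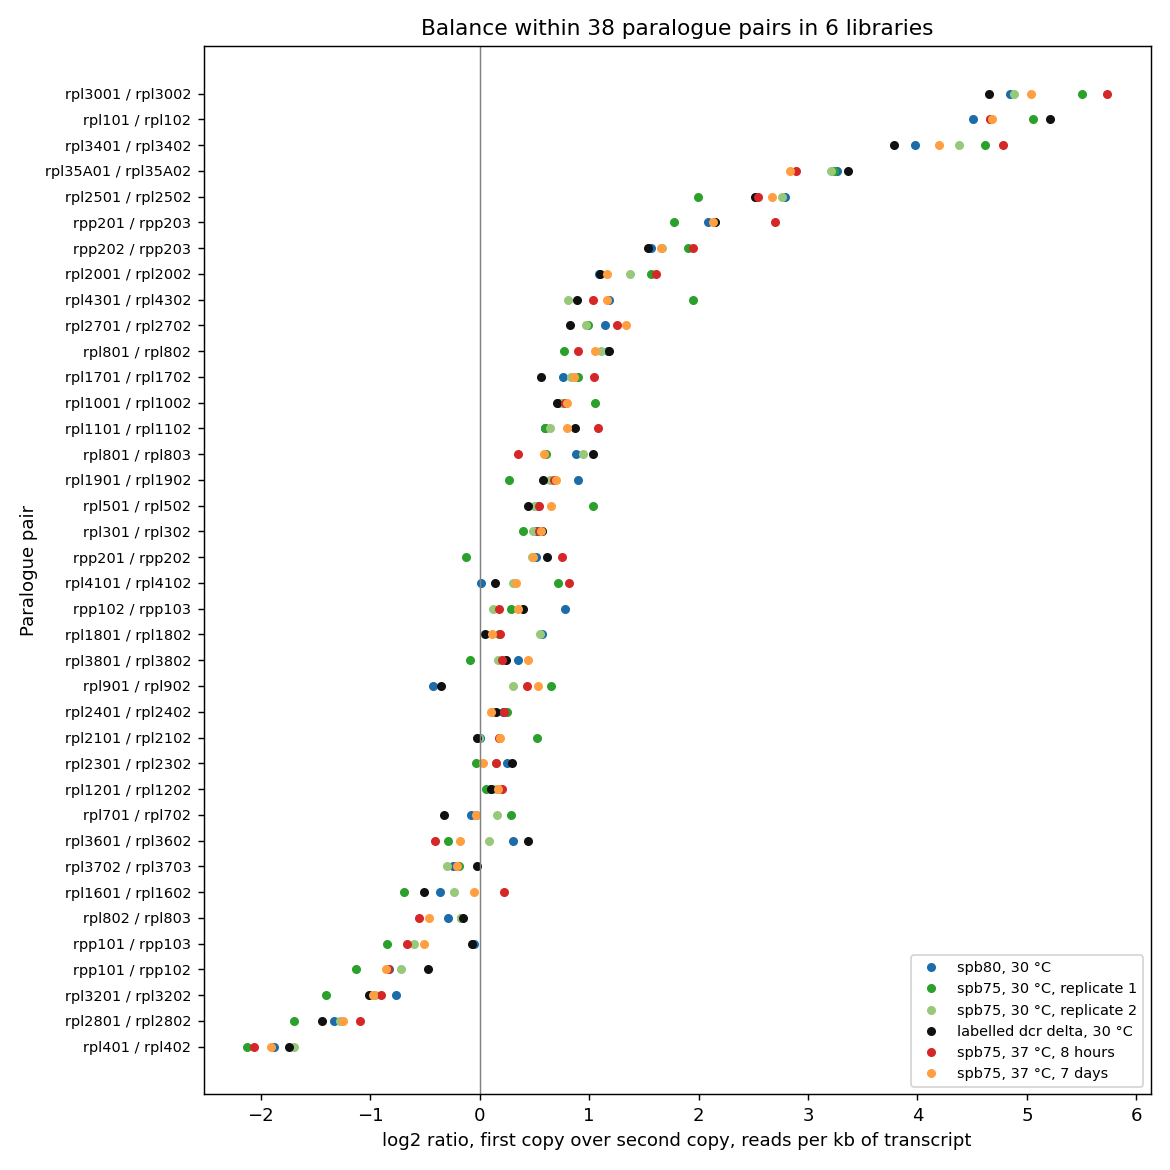
The log2 ratio of reads per kb of transcript, first copy over second copy (x axis), for each of 38 paralogue pairs (rows) in 6 libraries (points). In 30 rows all 6 points lie on one side of 0, and the top 3 rows have means from 4.29 to 5.11.

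How alike the copies are limits these ratios, since values of fractions of a read show that reads with several matches were shared out. Of the member values, 52.7% were whole reads within 0.01, against 84.9% for all other peaks. These sets were not matched for reads per peak, so the gap does not measure sharing between copies alone. Identity of the coding sequences ranged from 66.1 to 99.6% over the pairs. The share of 20-base words of one coding sequence found in the other ranged from 0 to 97.3%, with a median of 4.61%, the highest being that of rpl1201 and rpl1202. As a description over 38 pairs, which share libraries and in trios genes, the absolute log2 ratio and this share had Pearson's r of -0.285 and Spearman's rho of -0.334. The 3 most unequal pairs shared 0, 1.42 and 0% of such words. With rpl15 and rpl1502 counted as a pair, the 13 single genes had a median of 5481 normalised reads per kb in wild type at 30 °C, the 69 genes with a paralogue 3798, and the sum over each of 33 families 7481. With those 2 genes counted as single, the medians were 4627, 3933 and 7555.

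**Figure D4:**
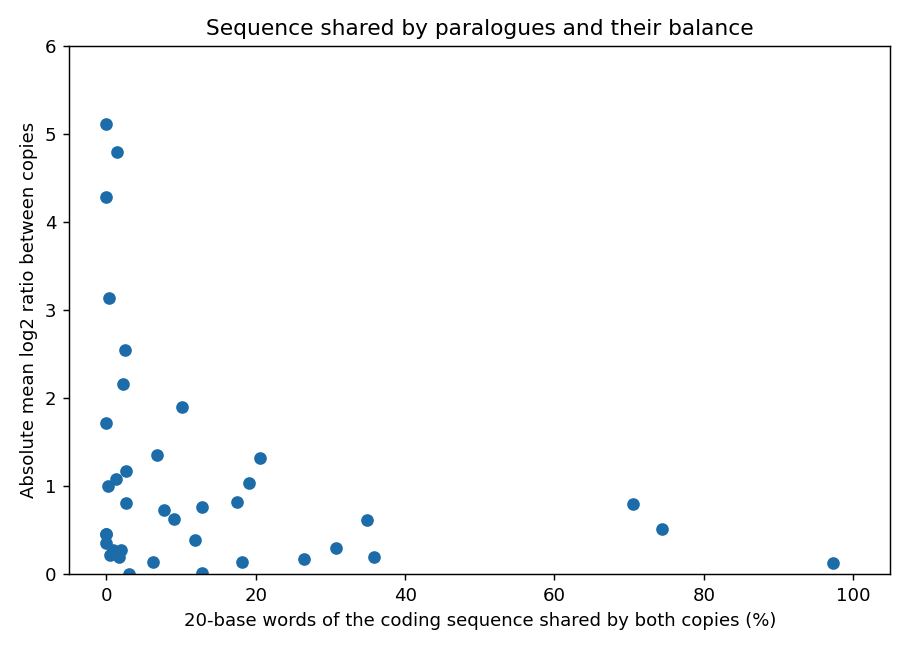
Each point is 1 of 38 paralogue pairs, with the share (%) of 20-base coding words found in both copies on the x axis and the absolute mean log2 ratio between the copies over 6 libraries on the y axis. The pairs with the largest ratios, up to 5.11, lie at shares near 0, where many even pairs lie too.

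The promoters of the members were read because the HomolD box, which takes the place of a TATA box, is known from fission yeast ribosomal protein genes. The window ran from 250 bases before to 50 after the annotated transcript start in ASM294v3, and both strands were searched for CAGTCACA. HomolD letters were found in 54 of 82 members (65.8%), in 61.8% of small-subunit genes and in 2.68% of 5112 protein-coding genes. The HomolD box began a median of 51 bases before the start. The windows below show it, in capitals, for the member with the highest level per kb and for both copies of the 2 most unequal pairs, each on the strand of its gene, at chrII:1558671-1558710, minus strand (rpl26), chrI:1974108-1974147, minus strand (rpl3001), chrI:5095911-5095950, minus strand (rpl3002), chrIII:612612-612651, minus strand (rpl101), and chrII:3060476-3060515, plus strand (rpl102).
rpl26: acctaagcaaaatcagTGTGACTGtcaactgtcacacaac
rpl3001: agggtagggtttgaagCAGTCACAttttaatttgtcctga
rpl3002: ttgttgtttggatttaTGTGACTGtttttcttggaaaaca
rpl101: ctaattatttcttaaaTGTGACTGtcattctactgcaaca
rpl102: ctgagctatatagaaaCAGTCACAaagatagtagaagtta

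Over all 38 pairs, both copies held these letters in 16, only the copy with more reads in 13, only the copy with fewer reads in 6 and neither in 3. In the third most unequal pair rpl3401 held them and rpl3402 did not, and in the fourth rpl35A02 held them and rpl35A01 did not. The median level was 3866 normalised reads per kb for the 54 members with the box and 4259 for the 28 without these letters in the window. A match describes the letters only and no binding was measured.

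The comparison of the library labelled dcr delta with the 3 wild-type libraries at 30 °C asks whether the small RNAs of these genes depend on Dicer. No member rose and none fell by limma with Benjamini-Hochberg adjustment at 0.05 over 4428 genes, where 0.294% of all genes were called as rising and 1.58% as falling. No member had an unadjusted p under 0.05 either, where 4.04% of all genes were higher and 3.68% lower at that level, and the smallest adjusted p by limma was 0.649. The log2 ratio was below 0 in 72 of 82 members, against 49.5% of all genes tested, with a median of -0.24 against 0.01 for all genes. The median member deviated from the wild-type mean by 0.07 in spb80 and by -0.12 and 0.02 in the spb75 libraries. In a bulk sample, fewer cells holding an RNA and less of it per cell cannot be told apart.

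The lowest log2 ratio in that comparison was that of rpl2001, which encodes an eL20 protein. It held 4990 normalised reads in spb80, 11315 and 6801 in the spb75 libraries at 30 °C and 3778 in the library labelled dcr delta, a log2 ratio of -0.94 ± 0.53 (SE; limma adjusted p = 0.722). The value labelled dcr delta was the lowest of the 4, but the wild-type libraries differed more among themselves than it did from spb80. The excess of replicate 1 of spb75 lay in 2 coding peaks, with 4343 and 5390 normalised reads against 2099 and 3312 in replicate 2, and both overlap the lncRNA gene SPNCRNA.741. Next came rpl901, with the uneven peak described above, at -0.81 ± 0.45 and rpl26 at -0.71 ± 0.42. The highest were rpl22, which encodes eL22, at 0.33 ± 0.39, rpl3002 at 0.23 ± 0.45 and rpl702 at 0.16 ± 0.42. The last 2 turned to -0.06 and -0.08 without replicate 1 of spb75. By role, the 5 genes of the tunnel wall had the lowest median log2 ratio, -0.49, and the 7 P-stalk genes one of -0.27. The highest was -0.10, for the 4 genes of the P-stalk base and the L1 stalk, 2 of which were below 0.

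After 8 hours at 37 °C every member had fewer normalised reads than the mean of spb75 at 30 °C, though none passed the test. No member rose or fell by limma at an adjusted p of 0.05, where 2.42% of all genes rose and 0.384% fell. At an unadjusted p of 0.05, 5 of 82 members were lower and none higher, where 6.5% of all genes were lower and 13.2% higher. The smallest adjusted p by limma was 0.200, that of rpp203. The log2 ratio was below 0 in 82 of 82 members, against 45% of all genes, with a median of -0.51 and a range of -1.08 to -0.15, against a median of 0.11 for all genes. The median member lay 0.09 below and 0.09 above the mean in the 2 spb75 libraries at 30 °C. Without replicate 2 of spb75 at 30 °C, 77 members were below 0. The share of all reads on members was 0.989% (95% Wilson interval 0.984 to 0.995%, counting error only) after 8 hours, against 2.39% and 3.91% in spb75 at 30 °C. Over the same libraries tRNA genes took 67.7% of reads after 8 hours and 39.1% and 31.9% at 30 °C. The part of the tRNA reads in the result was not tested.

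The lowest log2 ratio after 8 hours was that of rpl1602, which encodes uL13. It held 2879 and 2179 normalised reads in spb75 at 30 °C and 1186 after 8 hours, a log2 ratio of -1.08 ± 0.44 (SE; limma adjusted p = 0.203). For rpl4102, a gene for the very short eL41, the values were 1871 and 2327 at 30 °C and 1066 after 8 hours, a log2 ratio of -0.97 ± 0.43. For rpl2502 the values were 805 and 653 at 30 °C and 387 after 8 hours, a log2 ratio of -0.90 ± 0.37. In each of these genes the value after 8 hours lay below both controls. At the other end, rpp201 held 1704 and 2400 normalised reads at 30 °C and 1816 after 8 hours, and rpl502 1299 and 1961 against 1437. The heated value lay between the controls in both, with log2 ratios of -0.16 ± 0.44 and -0.15 ± 0.44, which were 0.09 and 0.14 without replicate 2. For rpl35A02 the log2 ratio was -0.16 ± 0.37. By role the medians ran from -0.31 for the 5S RNA particle to -0.77 for the peptidyl transferase centre.

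After 7 days at 37 °C the members lay on both sides of their levels at 30 °C. None rose or fell by limma, where 0.407% of all genes rose and 0.903% fell. None had an unadjusted p under 0.05, where 5.37% of all genes were higher and 6.73% lower at that level, and the smallest adjusted p was 0.692. The log2 ratio was below 0 in 57 of 82 members, against 49.1% of all genes, with a median of -0.12 against 0.01 for all genes. Without replicate 2 of spb75 the median was 0.00 and 41 members were below 0. The lowest was rpl3401, which held 6708 and 5344 normalised reads at 30 °C and 3811 after 7 days, a log2 ratio of -0.65 ± 0.53 (SE; limma adjusted p = 0.692), followed by rpp202 at -0.50 ± 0.41 and rpl2001 at -0.49 ± 0.61. The highest was rpp0, which held 3150 and 3760 normalised reads at 30 °C and 4239 after 7 days, a log2 ratio of 0.30 ± 0.49. It was followed by rpl35A02 at 0.28 ± 0.37 and rpl1802, which encodes eL18, at 0.26 ± 0.41.

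The libraries at 37 °C were also set against each other. No member passed limma's test, where 0.0226% of all genes rose and 0.0903% fell from 8 hours to 7 days. None had an unadjusted p under 0.05, where 2.26% of all genes were higher and 8.27% lower, and the smallest adjusted p was 0.512. The log2 ratio was above 0 in 79 of 82 members, against 45% of all genes, with a median of 0.40 against -0.09 for all genes. Each time has 1 library, so the spread in this test comes only from the 2 spb75 libraries at 30 °C. The comparison shares the 8-hour library with the one at 8 hours, so the 2 are not independent. The highest log2 ratios were those of rpl4102, which went from 1066 to 2151 normalised reads (1.01 ± 0.49, SE), rpl3002, from 53.0 to 103 (0.95 ± 0.53), and rpl1602, from 1186 to 2064 (0.80 ± 0.51). The 3 members below 0 were rpl3401 at -0.08 ± 0.61, rpp201 at -0.04 ± 0.51 and rpl1502, which was level between the libraries, with 1084 normalised reads in each.

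The spread between wild-type strains was measured by spb80 against spb75 at 30 °C. No member passed limma's test, where 0.113% of all genes rose and 0.181% fell. None had an unadjusted p under 0.05, where 2.91% of all genes were higher and 3.41% lower, and the smallest adjusted p was 0.940. The log2 ratio was above 0 in 58 of 82 members and below 0 in 24, against 49.6% and 50.4% of all genes, with a median of 0.11. The extremes were rpl2001 at -0.81 ± 0.62 (SE), rpl901 at -0.72 ± 0.50 and rpl39 at -0.50 ± 0.51, and rpl22 at 0.53 ± 0.47, rpl502 at 0.54 ± 0.44 and rpl4302 at 0.63 ± 0.47. Between the 2 spb75 libraries at 30 °C the log2 ratio of replicate 1 over replicate 2 ran from -0.97 for rpl4302 to 0.77 for rpl2101.

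**Figure D5:**
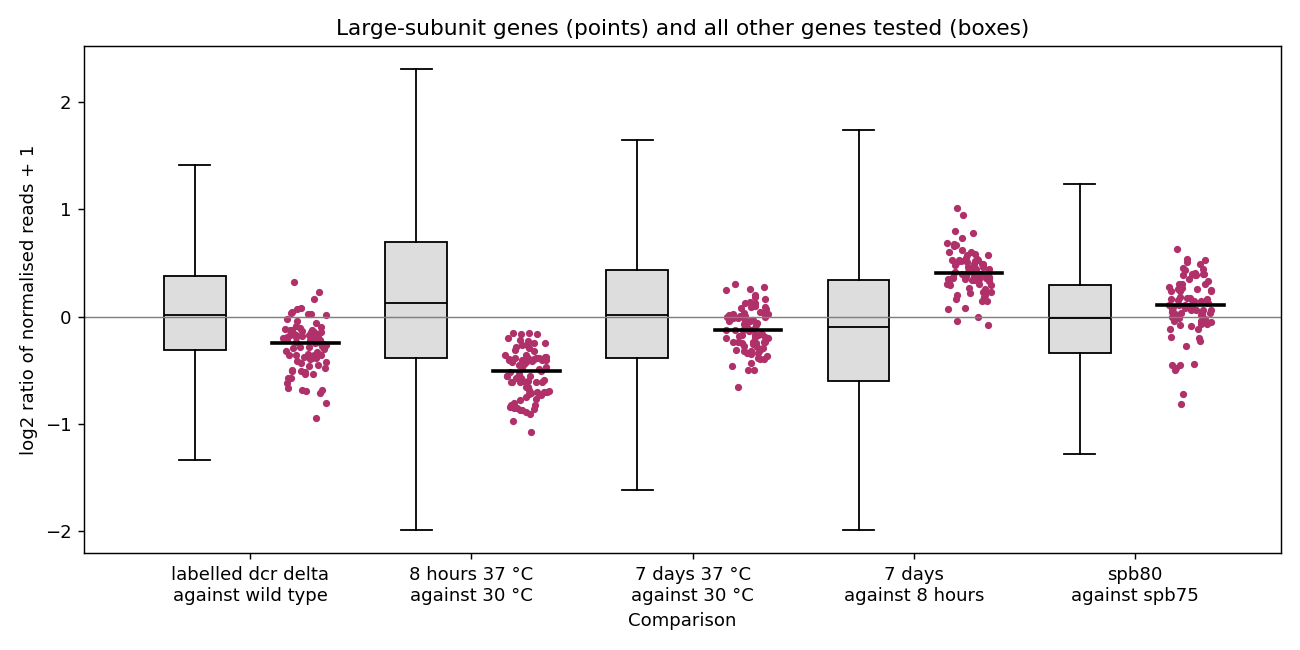
The log2 ratio of normalised reads plus 1 (y axis) in 5 comparisons (x axis). Points are the 82 large-subunit genes with their median as a bar, and boxes show the quartiles of all other genes tested with whiskers to 1.5 times the interquartile range. After 8 hours at 37 °C all 82 points lie below 0, with a median of -0.51.

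Of the other genes of the translation machinery in the lists, none was called by limma in any of the 5 comparisons, and at most 3 of a list had an unadjusted p under 0.05. At that level, in either direction, were 19.7% of all genes after 8 hours, 7.72% in the library labelled dcr delta and 12.1% after 7 days. Of the 55 small-subunit genes tested, 52 were below 0 after 8 hours, against 45% of all genes, with a median log2 ratio of -0.44 and 3 with an unadjusted p under 0.05. Their median was -0.19 in the library labelled dcr delta, with 1 at that level, and -0.14 after 7 days, with 0. All 3 ubiquitin fusion genes, which encode ubiquitin joined to a ribosomal protein, were below 0 after 8 hours, with a median of -0.61. The 14 translation factor genes tested had a median of -0.33 after 8 hours and 0.08 in the library labelled dcr delta. The 21 genes tested for assembly factors, which build the large subunit in the nucleolus and are not part of it, had a median of -0.46 after 8 hours, with 11 below 0 against 45% of all genes. Their median was 0.35 in the library labelled dcr delta, with 17 above 0 against 50.5% of all genes. A like shift was seen between wild-type strains. In spb80 against spb75 at 30 °C, 18 of 22 assembly factor genes tested were above 0, against 49.6% of all genes, with a median of 0.23.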

How the data were processed

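Per the labels' protocols, RNA of 18 to 28 nt was gel-purified and made into Illumina TruSeq small RNA libraries. The tools listed in the submitters' processing notes are CASAVA (1.8), Bowtie (0.9.9.1) and MACS; which did what, and on which build, is not given. The deposited signal was found from its values to equal reads times 71.0 bp, the mean width of all peaks, over the width of that peak. An added 8 in the columns of spb80 and dcr delta was subtracted, and the latter's step of 1.48 per read divided out; 73.8 to 92.4% of values were then whole reads within 0.01.

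Peaks were placed on ASM294v3, where 212 of 268 small RNA genes held a peak, against 38 to 60 with peaks moved 200 to 2000 bp. Reads were summed per gene, counting a peak for each gene it overlapped, and scaled by trimmed-mean factors (trims of 30% and 5%). The lowest 25% of genes were dropped. limma 3.58.1 in R 4.3.3 with a variance trend tested log2 of normalised reads plus 1, 2-sided, adjusted over 4428 genes. Each test has at least 1 arm of a single library, assumed to vary like the others, and 7 days against 8 hours has 1 in both, its spread coming from spb75 at 30 °C. Most of the variance is borrowed from other genes: residual degrees of freedom were 2 for dcr delta and 1 otherwise, prior ones 4.59 to 13.9. The labels do not say whether libraries came from separate cultures, so p-values measure only the spread between these samples. The count test named in the design for whole counts was not used, since the file holds signal. The fit was tested on simulated data.

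Named genes are the 3 highest and 3 lowest members per comparison when none passed, the 5 highest and 3 lowest levels, the 5 most and 5 least unequal pairs, the 3 most variable pairs and the rpp genes. Members and lists were chosen with earlier results of these data known. Coordinates are 1-based.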

Additional observations from a re-analysis of the deposited data

How the results depend on the processing

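In no alternative was a member called by limma. After 8 hours and after 7 days, no gene of any kind was called under median-of-ratios scaling or with peaks on 1 gene only. The same held with the 3 wild-type libraries as control. The lack of called members in those fits does not set them apart from other genes. Under scaling by total reads the median log2 ratio of members moved to -1.58 after 8 hours and -0.59 after 7 days. It moved to 1.01 for 7 days against 8 hours and to -0.20 for spb80 against spb75. In the same order the median of all genes moved to -0.96, -0.46, 0.52 and -0.31. Relative to that median the members stood at -0.62 after 8 hours under both scalings. This is no check, since a change of scaling moves all log2 ratios of a comparison by nearly the same amount. With the added 8 kept, the median was -0.35 for the library labelled dcr delta and -0.094 for spb80 against spb75. With peaks on 1 gene only, which leaves 52 members, it was -0.40 for the library labelled dcr delta. Leaving out 1 library at a time, the median ran from -0.32 to -0.21 for the library labelled dcr delta. After 8 hours it ran from -0.56 to -0.40 and after 7 days from -0.17 to 0.00. For spb80 against spb75 it ran from 0.05 to 0.19. With 1 library left out, 30 to 33 pairs kept one direction. Fewer than 30 was not possible there, since pairs that keep it over all libraries keep it in any subset. Counted per kb of coding sequence, 28 pairs kept one direction. With rpl15 and rpl1502 added as a pair, 31 of 39 did.

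Among named members, total-read scaling turned rpl1802, rpl35A02 and rpp0 after 7 days to -0.21, -0.19 and -0.17, and rpl3401, rpp201 and rpl1502 at 7 days against 8 hours to 0.53, 0.56 and 0.60. Median-of-ratios scaling turned the last 2 to 0.035 and 0.075, and counting a peak only where most of it lies in the gene to 0.035 and 0.073. With peaks on 1 gene only, rpl2001 turned to 0.44 after 7 days and 0.58 for spb80 against spb75, and rpl3002 to -0.13 in the library labelled dcr delta. Leaving out 1 library at a time, the log2 ratio in the library labelled dcr delta ran from -0.083 to 0.29 for rpl702 and from -0.057 to 0.40 for rpl3002, both lowest without replicate 1 of spb75. After 8 hours it ran from -0.40 to 0.092 for rpp201 and from -0.45 to 0.14 for rpl502, both highest without replicate 2. The cause was not tested. No paired analysis was possible because the groups compared share fewer than 2 replicate numbers. Single libraries per condition, reads shared between copies and the missing strand limit all of these values.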
